A study of Mus musculus with 24 samples.

Results

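The 8 genes described here encode adhesion molecules of the vessel wall and their selectin partner: the immunoglobulin-type adhesion molecules Icam1, Vcam1 and Icam2, the selectins Sele and Selp, the leukocyte selectin ligand Selplg, and the endothelial junction proteins Pecam1 and Cdh5. They were chosen by name, by a rule that sets no limit on a measured value, and all 8 were found among the 41388 genes of the count table. Transcripts were counted in 24 hearts of wild type male Balb/c mice (BALB/cAnNCrl), 8 to 10 weeks old at the first injection, with 4 hearts in each of 6 groups. Mice with experimental autoimmune myocarditis (EAM) were given 100 µg of a cardiac myosin heavy chain peptide in supplemented complete Freund's adjuvant (SCFA) on day 0 and again on day 7, together with pertussis toxin (PTX) on day 0. Control mice received the same SCFA and PTX with PBS in place of the peptide, so every heart came from an animal exposed to both immune stimulants, and no untreated heart was analysed here. Hearts were taken on day 10, 15 or 21 (D10, D15, D21), and EAM samples were selected as far as possible for the presence of inflammation, which limits them as a picture of all immunized mice. At D10, however, the authors found raised myocardial CD45+ cells or cardiac troponin I in no EAM mouse.

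Leukocytes leave the blood in a sequence of steps. Selectins on activated endothelium catch them by carbohydrate ligands such as the Selplg protein (PSGL-1), and chemokines then switch on leukocyte integrins. The integrins hold on to Icam1, Icam2 and Vcam1, after which the cell passes between endothelial cells whose contacts contain Pecam1 (CD31) and Cdh5 (VE-cadherin). Inflammatory cytokines induce Sele, Vcam1 and Icam1 in endothelium largely through NF-kB, whereas Icam2, Pecam1 and Cdh5 are present on resting endothelium.

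In the GRCm38 build, Icam1 (ENSMUSG00000037405) lies on the plus strand at chr9:21015985-21028817, Vcam1 (ENSMUSG00000027962) on the minus strand at chr3:116109949-116129688 and Icam2 (ENSMUSG00000001029) on the minus strand at chr11:106377656-106388075. Both selectins lie on the plus strand of chromosome 1, Sele (ENSMUSG00000026582) at chr1:164048234-164057677 and Selp (ENSMUSG00000026580) at chr1:164115264-164150026. Selplg (ENSMUSG00000048163) is at chr5:113818536-113832644 and Pecam1 (ENSMUSG00000020717) at chr11:106654217-106750628, both on the minus strand, and Cdh5 (ENSMUSG00000031871) is at chr8:104101625-104144511 on the plus strand. Antisense genes share 511 exonic bases with Icam1, 61 with Vcam1, and 186 and 438 with Selp. The pair at Selp held at most 7 and 3 reads in any heart, and no source used here states whether reads were counted by strand.

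RefSeq promoter sequences (GRCm38.p6) were matched for 3 of the 8 genes. These 3 are shown because no promoter sequence was matched for the other genes. All 3 had higher fitted levels in EAM hearts at every time point, as did Vcam1 and Selplg, which are not shown. Each window holds the letters of an NF-kB-like motif. Each run is the 250 bases before the start of transcription, 5′ to 3′ on the plus strand (Icam1 chr9:21015690-21015939, Sele chr1:164047984-164048233, Selp chr1:164115014-164115263). Capitals mark matches to GGNNNTTCC on either strand.
Icam1: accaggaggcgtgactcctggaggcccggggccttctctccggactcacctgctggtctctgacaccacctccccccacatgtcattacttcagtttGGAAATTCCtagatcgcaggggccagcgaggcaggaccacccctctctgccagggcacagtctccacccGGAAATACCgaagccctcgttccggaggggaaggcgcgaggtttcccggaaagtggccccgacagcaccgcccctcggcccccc 
Sele: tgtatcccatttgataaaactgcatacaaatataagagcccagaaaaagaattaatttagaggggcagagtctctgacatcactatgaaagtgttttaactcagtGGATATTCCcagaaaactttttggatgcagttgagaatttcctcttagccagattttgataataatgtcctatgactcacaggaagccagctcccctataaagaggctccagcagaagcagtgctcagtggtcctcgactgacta 
Selp: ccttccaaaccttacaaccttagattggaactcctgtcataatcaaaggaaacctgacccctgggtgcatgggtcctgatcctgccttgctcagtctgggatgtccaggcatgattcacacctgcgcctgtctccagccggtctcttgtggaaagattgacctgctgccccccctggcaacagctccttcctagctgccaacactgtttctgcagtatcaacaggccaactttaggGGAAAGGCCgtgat

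The Icam1 window held GGAAATTCC from 153 to 145 bases before the start, a match on both strands, and GGAAATACC, a match on the minus strand, from 84 to 76 bases before it, and TTCCCGGAA, a match to the STAT-like letters TTCNNNGAA, from 42 to 34. In the Sele window GGATATTCC lay 145 to 137 bases before the start. It overlapped TTCCCAGAA, another match to TTCNNNGAA, from 140 to 132, and the AP-1-like TGACTCA followed at 73 to 67. In the Selp window the only match to GGNNNTTCC was on the minus strand, 14 to 6 bases before the start, with an AP-1-like TGATTCA at 139 to 133. GGNNNTTCC was present in 15.7% of all 32851 promoter windows of this length, TGANTCA in 6.75% and TTCNNNGAA in 7.02%, both strands searched. These matches are descriptions of letters and do not show that a factor was bound.

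Libraries held 15814863 to 24980864 counted reads (median 19469783), and the lowest count of any of the 8 genes in any heart was 39 reads. Levels are given as counts per 1000000 reads (CPM) after TMM scaling, a normalization for library size and composition. A gene was called when edgeR's quasi-likelihood test gave a false discovery rate (FDR, Benjamini-Hochberg over all genes tested) under 0.01 and at least a 2-fold change. All 8 genes passed the low-count filter at every time point. The 4 D21 EAM libraries carry a different identifier prefix from the other 20, so at D21 this prefix and EAM cannot be told apart, and no comparison within a prefix was possible. Endothelial markers were present throughout: all 20 genes of an endothelial list had reads in every group, with summed levels of 1558 to 2070 CPM in control hearts.

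Per kilobase of exon, the resting junction and adhesion genes were the most abundant in the 12 control hearts. The median level was 71.9 CPM per kb for Cdh5, 51.3 for Pecam1, 19.6 for Icam2, 7.39 for Icam1, 5.19 for Vcam1, 2.24 for Selplg, 1.20 for Sele and 0.870 for Selp. Ranges over hearts overlapped between the neighbours Cdh5 and Pecam1, Icam1 and Vcam1, Selplg and Sele, and Sele and Selp, and did not overlap at the other steps of this order. In the 12 EAM hearts Cdh5 (47.3 CPM per kb) and Pecam1 (41.8) remained highest by median, Icam1 was at 20.7, Selplg at 20.2, Icam2 at 16.5, Vcam1 at 12.2, Selp at 8.72 and Sele at 5.26. There, only Pecam1 and Icam1 were neighbours with ranges that did not overlap. Among control hearts the highest level of a gene was 1.28 times the lowest for Pecam1 and 4.34 times for Selp. Among EAM hearts these ratios were 1.42 for Pecam1 and 22.5 for Selp.

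**Figure D1:**
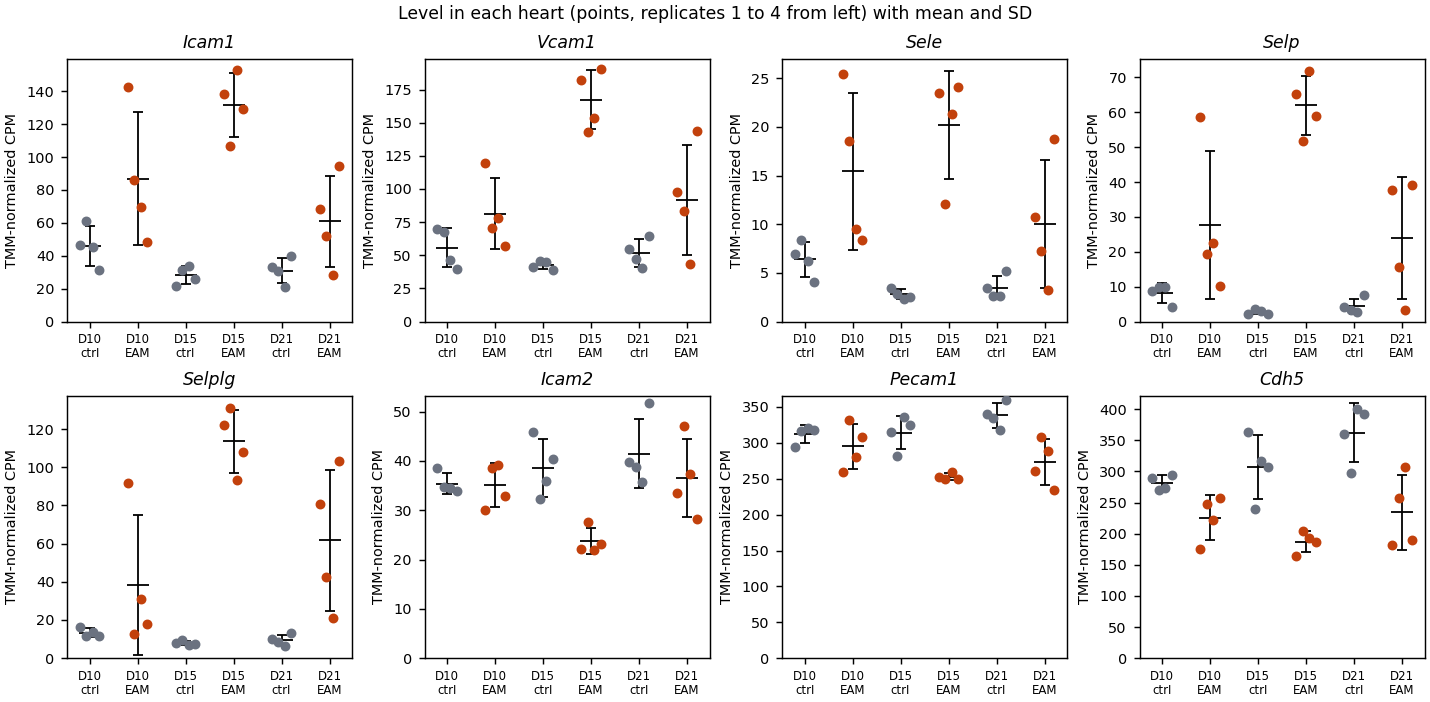
Level of each of the 8 genes in each heart (y axis, TMM-normalized CPM from 0) in the 6 groups (x axis), with grey points for control hearts, orange points for EAM hearts, and a bar and whiskers for the mean and SD of 4 hearts. At D15 the EAM hearts lie above all controls for Icam1, Vcam1, Sele, Selp and Selplg and below them for Icam2, Pecam1 and Cdh5, whereas at D10 and D21 the EAM hearts spread widely.

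The first comparison asked which of these genes differed between EAM and control hearts at each time point. At D15 the selectins, their ligand and the inducible adhesion molecules rose together: 5 of 8 genes were called higher (Selp, Selplg, Sele, Icam1 and Vcam1), by 3.95-fold for Vcam1 to 22.1-fold for Selp. No gene was called lower at D15. The junction genes Cdh5 and Pecam1 and the resting adhesion molecule Icam2 were lower, past the FDR limit but by less than 2-fold. Among the 15693 genes tested at D15, 18.1% were called higher and 12.9% lower. In all 8 genes the EAM and control hearts did not overlap at D15, 5 above and 3 below, against 35.6% and 34.7% of all genes tested.

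Selp, the P-selectin that endothelial cells and platelets store in granules and move to their surface, showed the highest fold change of the 8 genes at D15. Its level was 65.2, 51.9, 71.8 and 59.1 CPM in the EAM hearts and 2.30, 3.63, 3.07 and 2.30 CPM in the controls. The lowest EAM heart was thus far above the highest control, and the log2 fold change was 4.47 (SE 0.17, adjusted p = 4.99e-08, n = 4 against 4). Sele, the E-selectin made by activated endothelium, was at 23.5, 12.1, 21.3 and 24.1 CPM in EAM hearts and 3.50, 2.87, 2.34 and 2.48 CPM in controls. EAM replicate 2 was the low one of its group and still above every control. The log2 fold change of Sele was 2.86 (SE 0.24, adjusted p = 6.42e-06). Platelet markers moved with Selp at D15: their summed level was 34.0 to 74.3 CPM in EAM hearts and 16.7 to 21.8 in controls, with 2 of 5 tested called higher and 1 lower, and their part in the Selp difference was not tested. In EAM replicate 2, which had the highest platelet sum of its group, Selp was the lowest of the 4 hearts.

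Selplg, the ligand carried by leukocytes, stood at 122, 131, 93.3 and 108 CPM in D15 EAM hearts and at 7.67, 9.31, 6.97 and 7.31 CPM in controls. It rose by 3.88 on the log2 scale (SE 0.14, adjusted p = 3.28e-08). Ptprc (CD45, on all leukocytes) rose alongside it, by 3.98 (SE 0.12, adjusted p = 1.39e-08), and 11 of 12 leukocyte markers were called higher, with summed levels of 3578 to 5036 CPM in EAM hearts and 502 to 573 in controls. The log2 ratio of Selplg to Ptprc within a heart was -1.31 ± 0.22 (SD, n = 4) in EAM hearts and -1.15 ± 0.29 in controls at D15. In bulk tissue, a change in the number of cells of a type and a change in RNA per cell cannot be told apart.

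Icam1, the receptor of leukocyte beta2 integrins, was at 138, 106, 153 and 129 CPM in D15 EAM hearts and 21.6, 31.4, 33.7 and 25.7 in controls. All 4 EAM hearts were clear of the controls, with a log2 fold change of 2.24 (SE 0.16, adjusted p = 2.15e-06). Vcam1, the receptor of the alpha4 integrins, was at 182, 143, 154 and 190 CPM in EAM hearts and 41.4, 45.7, 45.1 and 39.0 in controls. Its log2 fold change was 1.98 (SE 0.11, adjusted p = 3.74e-07). Leukocytes and stromal cells can also make both molecules, and the cell type behind each level was not measured.

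Cdh5, the cadherin of endothelial junctions, was at 164, 204, 193 and 187 CPM in D15 EAM hearts and 364, 239, 316 and 308 in controls, 1.62-fold lower (log2 fold change -0.70, SE 0.12, adjusted p = 0.000658). Icam2, which rests on endothelium and on platelets, was at 22.2, 27.6, 21.9 and 23.2 CPM against 45.9, 32.3, 36.0 and 40.3, or 1.61-fold lower (adjusted p = 0.000576). Pecam1, shared by endothelium, platelets and many leukocytes, was at 252.5, 249.5, 259 and 249 CPM in EAM hearts and at 315, 282, 336 and 325 in controls. It was 1.23-fold lower (log2 fold change -0.30, SE 0.07, adjusted p = 0.00318), the smallest D15 difference of the 8 genes. At D15, 33.3% of all genes tested were higher and 31.2% lower at this FDR without a fold limit. Of 20 other endothelial identity genes, 5 were called lower at D15 (Cldn5, Gpihbp1, Kdr, Myct1 and Ushbp1) and 0 higher. Their summed level was 1047 to 1197 CPM in EAM hearts and 1558 to 2045 in controls. Over the same hearts 5 of 10 cardiomyocyte markers and 4 of 8 mural cell markers were called lower, and 3 of 8 fibroblast markers higher. In EAM hearts mitochondrial reads were 3.19% to 4.31% of counts against 6.10% to 7.14% in controls, and total counts were 21617982 to 24980864 against 17421059 to 19958265. The part of these shifts in the lower endothelial levels was not tested.

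**Figure D2:**
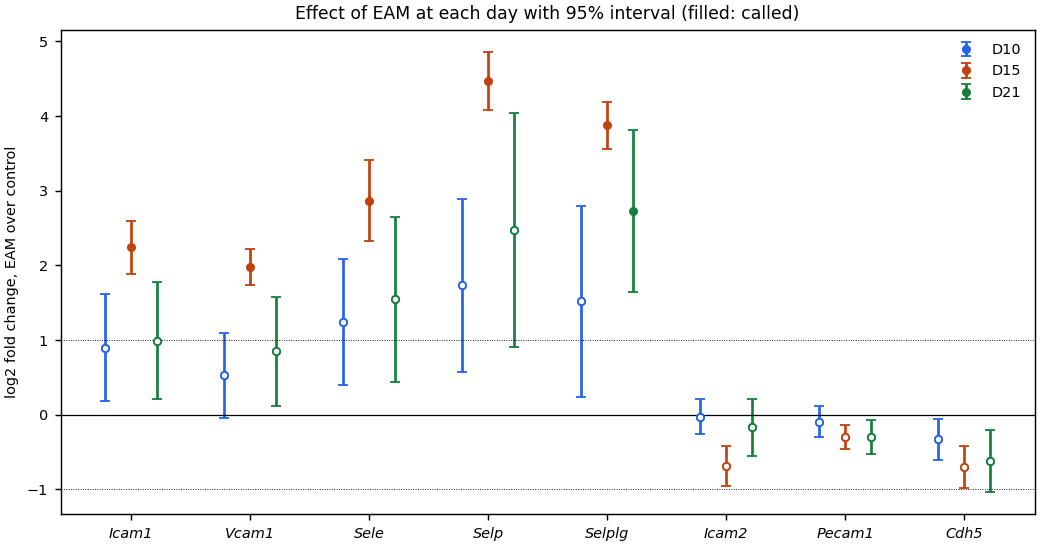
Log2 fold change of EAM over control (y axis) for each of the 8 genes (x axis) at D10, D15 and D21, with 95% confidence intervals from the edgeR fit. Filled points were called, open points were not, and dotted lines mark a 2-fold change. Selp at D15 is the highest point at 4.47, and for Icam1, Vcam1, Sele, Selp and Selplg the D10 and D21 intervals are wider than those of D15.

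At D10, 0 of 8 genes were called by edgeR's quasi-likelihood test, and 0 by the likelihood ratio test, DESeq2 or limma-voom. Over all 15029 genes the quasi-likelihood test called 0% in either direction, with 0.249 the smallest adjusted p of any gene, while the likelihood ratio test called 45 genes higher and 2 lower and DESeq2 48 higher and 4 lower. At an unadjusted p under 0.05, 4 of the 8 genes were higher (Sele, Selp, Selplg and Icam1) and 1 was lower (Cdh5), where 9.49% of all genes were higher and 5.67% lower. EAM and control hearts did not overlap for Sele and Selp, which were above, nor for Cdh5, which was below. Over all genes the shares were 4.24% above and 3.89% below.

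Sele was at 25.5, 18.5, 9.47 and 8.41 CPM in D10 EAM hearts and at 6.96, 8.39, 6.26 and 4.08 CPM in controls. Replicates 1 and 2 of the EAM group were high, while replicate 4 stood at 8.41 against 8.39 CPM in the highest control. The log2 fold change was 1.24 (SE 0.37, 95% interval 0.40 to 2.09, adjusted p = 0.328). Selp was at 58.7, 19.4, 22.4 and 10.2 CPM in EAM hearts and 8.81, 9.97, 9.90 and 4.08 in controls, a log2 fold change of 1.73 (SE 0.51, adjusted p = 0.328). EAM replicate 1 set the upper end, and without it the fitted difference was 1.06. Cdh5 was at 176, 248, 222 and 257 CPM in EAM hearts against 289, 269, 273 and 295 in controls, with a log2 fold change of -0.33 (SE 0.12, adjusted p = 0.328). EAM replicate 1 also stood apart in cell type sums. Its leukocyte marker sum was 3282 CPM (other EAM hearts 824 to 1576, controls 552 to 1162). Its cardiomyocyte sum was 22520 (32730 to 38480, controls 34130 to 41980) and its mural cell sum 1172 (1803 to 2034, controls 1926 to 2390). The part of these shifts in the D10 levels was not tested.

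Icam1 was at 143, 85.7, 69.7 and 48.5 CPM in D10 EAM hearts and at 46.3, 61.0, 45.5 and 31.0 in controls, and Vcam1 at 120, 70.9, 77.9 and 57.2 against 69.4, 67.3, 46.4 and 39.9. For both genes EAM replicate 4 lay within the control range and the other hearts above it. Selplg was at 91.9, 12.7, 31.0 and 17.8 CPM in EAM hearts and 16.2, 11.4, 13.9 and 11.4 in controls, where EAM replicate 2 lay among the controls. The log2 fold changes were 0.90 (SE 0.32) for Icam1, 0.53 (SE 0.25) for Vcam1 and 1.52 (SE 0.56) for Selplg. Without EAM replicate 1 they were 0.56, 0.29 and 0.63. Icam2 and Pecam1 had log2 fold changes of -0.03 (95% interval -0.26 to 0.21) and -0.10 (-0.30 to 0.11).

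Sele and Ptprc did not order the D10 EAM hearts alike. In EAM replicate 2, chosen here after its values were seen, Ptprc was 27.6 CPM, within the control range of 23.8 to 37.9, and Selplg was also among the controls. In the same heart Sele (18.5 CPM), Selp (19.4), Icam1 (85.7) and Vcam1 (70.9) were above every D10 control, Vcam1 by the narrowest margin. Its platelet marker sum was 128 CPM, below the 164.5 of control replicate 3 but above the other D10 controls, at 63.8 to 67.2, and the other D10 EAM hearts, at 77.7 to 85.9, and the part of platelets in its Selp level was not tested. In EAM replicate 1 Ptprc was 195 CPM and all 5 inducible or leukocyte genes were above the controls. No test of this difference between hearts was made.

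**Figure D3:**
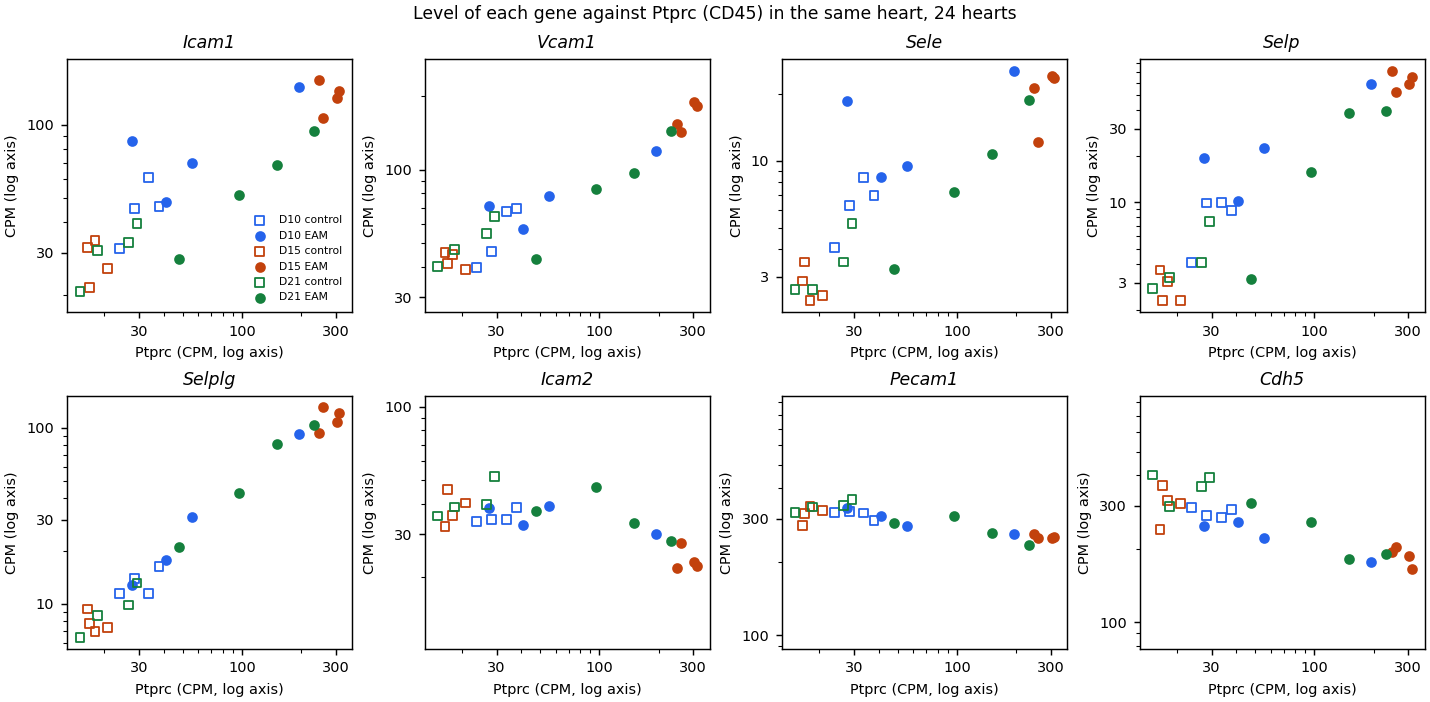
Level of each of the 8 genes (y axis, CPM, log axis) against Ptprc (x axis, CPM, log axis) in the same heart, with 12 open squares for control hearts, 12 filled circles for EAM hearts, and colour for the time point. The D15 EAM hearts lie at the upper right for Selplg, while for Sele a D10 EAM heart with 27.6 CPM of Ptprc reaches 18.5 CPM. All points of a panel share their library and its scaling.

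At D21, 1 of 8 genes was called, Selplg, which was higher. Over all 15266 genes tested, 4.3% were called higher and 1.3% lower. The number of genes called higher, 657, depended on single libraries: it was 0 without control replicate 1, 2 or 3, 2 without control replicate 4, 5 and 19 without EAM replicates 1 and 2, 303 without EAM replicate 4 and 1480 without EAM replicate 3. The EAM hearts lay above all controls only for Selplg and below all controls only for Pecam1, against 16.5% and 19.4% of all genes. Selplg was at 80.5, 42.4, 21.1 and 103 CPM in EAM hearts and at 9.82, 8.51, 6.44 and 13.1 in controls, with a log2 fold change of 2.73 (SE 0.48, adjusted p = 0.00708). Leaving out any heart of D21 but EAM replicate 3 ended this call, although the log2 fold change of Selplg stayed between 2.37 and 2.995 without 1 heart. Limma-voom also ended it, while the likelihood ratio test and DESeq2 each called 3 of the 8 genes, in fits that called 1356 and 1364 of all genes higher. Pecam1 was at 261, 308, 289 and 234 CPM against 341, 335, 318 and 360, with a log2 fold change of -0.29 (SE 0.10, adjusted p = 0.0512). Other cell type markers moved over the same D21 hearts. Of the leukocyte markers 9 of 11 tested were called higher, with summed levels of 1310 to 4491 CPM in EAM hearts and 436 to 721.7 in controls. Of the fibroblast markers 3 of 8 were called higher, with sums of 4108 to 12080 CPM against 2213 to 2780. The cardiomyocyte sum was 17540 to 38250 CPM in EAM hearts and 35430 to 37740 in controls, with 1 of 10 markers called lower. The mural cell sum was 997 to 2096 CPM in EAM hearts and 2450 to 2577 in controls, with 0 of 8 markers called. The platelet sum was 25.1 to 56.1 CPM in EAM hearts and 14.2 to 25.1 in controls, with 0 of 5 tested markers called. Mitochondrial reads were 3.92% to 6.77% of counts against 5.45% to 5.79%, and total counts were 15814863 to 19276313 against 19593359 to 22859202. The part of these shifts in the D21 levels of the 8 genes was not tested.

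At D21 the selectins of EAM replicate 3 were apart from those of the other EAM hearts. Selp was at 37.8, 15.6, 3.19 and 39.1 CPM in EAM hearts and 4.05, 3.25, 2.76 and 7.50 in controls (log2 fold change 2.47, SE 0.69, adjusted p = 0.0270), and Sele at 10.8, 7.25, 3.25 and 18.7 against 3.49, 2.63, 2.63 and 5.20 (log2 fold change 1.54, SE 0.49, adjusted p = 0.0405). For both, EAM replicate 3 lay within the control range and the other 3 hearts above it. Icam1 was at 68.6, 51.7, 28.3 and 94.6 CPM in EAM hearts and 33.0, 30.5, 20.8 and 39.6 in controls, and Vcam1 at 97.4, 83.4, 43.3 and 144 against 54.8, 47.3, 40.2 and 64.6, again with replicate 3 among the controls. Neither reached the limit, with adjusted p = 0.0547 for Icam1 and 0.0708 for Vcam1. Without EAM replicate 3, 5 of 8 genes were called higher at D21 (Icam1, Sele, Selp, Selplg and Vcam1), as were 1480 of 15102 genes in that fit. Ptprc in that heart was 47.7 CPM, above the control range of 15.0 to 29.3 and below the other EAM hearts, at 96.3 to 233. Cdh5 was at 181, 258, 307 and 190 CPM in EAM hearts and 360, 297, 401 and 392 in controls (log2 fold change -0.62, SE 0.18, adjusted p = 0.0338), and Icam2 at 33.4, 47.1, 37.3 and 28.2 against 39.7, 38.8, 35.7 and 51.7 (log2 fold change -0.17, SE 0.17, adjusted p = 0.449).

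The second comparison asked whether the EAM effect itself differed between time points, as a contrast in a fit of all 24 hearts. From D10 to D15 the effect became larger for 3 of 8 genes that were called: Selp by 2.69 on the log2 scale (SE 0.78, adjusted p = 0.00983), Selplg by 2.31 (SE 0.66, adjusted p = 0.00897) and Vcam1 by 1.40 (SE 0.37, adjusted p = 0.00571). Over all 16318 genes, 5.3% were called with a higher and 7.56% with a lower effect at D15. Leaving out 1 heart at a time gave between 0 and 5 called genes, and limma-voom called 1 (826 of 16318 genes higher and 1196 lower). The count was 5 without D10 EAM replicate 1, a fit in which 1961 of 16275 genes were called higher and 1763 lower. Without that heart the difference was 3.35 for Selp and 3.20 for Selplg. The difference was 1.57 for Sele (adjusted p = 0.0322) and 1.30 for Icam1 (adjusted p = 0.0209). For Icam2 it was -0.71 (adjusted p = 0.00977), under 2-fold. Each difference also holds the change in controls from D10 to D15, fitted at -1.55 for Selp, -0.77 for Selplg, -0.395 for Vcam1 and -1.22 for Sele, none called. Mean levels in EAM hearts went from 27.7 CPM at D10 to 62.0 at D15 for Selp and from 38.35 to 113.6 for Selplg. They went from 81.45 to 167.4 CPM for Vcam1 and from 15.5 to 20.2 for Sele.

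From D15 to D21, 0 of 8 differences of the effect were called by edgeR's quasi-likelihood test, the likelihood ratio test, DESeq2 or limma-voom, while 5 had an unadjusted p under 0.05 (1 higher and 4 lower at the later time point, against 23.5% and 17.4% of all genes). The 4 lower were Selp at -1.99 (95% interval -3.65 to -0.34, adjusted p = 0.0650), Sele at -1.31 (adjusted p = 0.102), Icam1 at -1.24 (adjusted p = 0.0388) and Vcam1 at -1.13 (adjusted p = 0.0284). The 1 higher was Icam2 at 0.54 (adjusted p = 0.0563). Selplg, at -1.15 (adjusted p = 0.195), was not among the 5. Over all genes 2.84% were called higher and 0.968% lower at the later time point. Between D10 and D21 0 of 8 were called by any of these tests, 0 had an unadjusted p under 0.05, against 2944 of all 16318 genes, and 0.0674% of all genes were called higher and 0.784% lower. These 3 comparisons share hearts, so their values stand side by side and are not independent.

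Between the control hearts of different time points, 0 of 8 genes were called by edgeR's quasi-likelihood test, the likelihood ratio test, DESeq2 or limma-voom. For D15 against D10, 0.00613% of all genes were called higher and 0.0735% lower. Sele was 4.08 to 8.39 CPM in D10 controls and 2.34 to 3.50 in D15 controls (log2 difference -1.22, SE 0.44, unadjusted p = 0.0116, adjusted p = 0.466), and Selp 4.08 to 9.97 against 2.30 to 3.63 (log2 difference -1.55, SE 0.60, unadjusted p = 0.0165, adjusted p = 0.536). Icam1 was the third of the 3 genes with an unadjusted p under 0.05 (-0.72, adjusted p = 0.640), where 3.58% of all genes were higher and 3.21% lower. Platelet markers were higher in the same libraries, at 63.8 to 164.5 CPM in D10 controls and 16.7 to 21.8 in D15 controls, and D10 controls had Ptprc at 23.8 to 37.9 against 16.4 to 20.8 CPM. In D10 control replicates 1 to 4 the platelet sums were 63.8, 66.1, 164.5 and 67.2 CPM beside Selp at 8.81, 9.97, 9.90 and 4.08 CPM, and the part of platelets in the Selp level was not tested. For D21 against D15 the shares were 0% and 0%, with 0 of 8 genes at an unadjusted p under 0.05, and for D21 against D10 they were 0.153% and 0.116%, with 2 of 8 at an unadjusted p under 0.05 (Sele, log2 difference -0.90, and Cdh5, 0.36), where 7.66% of all genes were higher and 4.77% lower.

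Ratios of 2 genes within a heart hardly depend on how libraries were scaled, and the inducible molecules were set against Cdh5 in this way. At D15 the log2 ratio of Selp to Cdh5 was -1.59 ± 0.28 (SD, n = 4) in EAM hearts and -6.53 ± 0.50 in controls, a 30.8-fold difference. Sele to Cdh5 differed 9.98-fold, Icam1 to Cdh5 7.56-fold, Vcam1 to Cdh5 6.27-fold and Icam1 to Icam2 7.48-fold. In each of these 5 ratios all EAM hearts were above all controls at D15 and the exact two-sided permutation test gave p = 0.0286, the smallest that 4 against 4 allows, which is 0.0735 after adjustment over the 18 ratio tests and misses 0.05. At D10 the Sele to Cdh5 ratio was -3.95 ± 0.92 against -5.39 ± 0.45 and the Selp to Cdh5 ratio -3.27 ± 1.26 against -5.09 ± 0.62. Both had the same p of 0.0286 by the exact permutation test. At D21 the 5 ratios were 2.09-fold to 5.95-fold higher in EAM by their means, with exact permutation p between 0.0571 and 0.114. Without EAM replicate 3 the D21 difference of Selp to Cdh5 was 3.46 on the log2 scale, against 2.57 with it. The Selplg to Ptprc ratio differed by 0.14, -0.15 and 0.09 on the log2 scale at D10, D15 and D21, with exact permutation p of 0.429, 0.457 and 0.543. With the mean level of the leukocyte markers in place of Ptprc the D15 difference was 0.69.

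**Figure D4:**
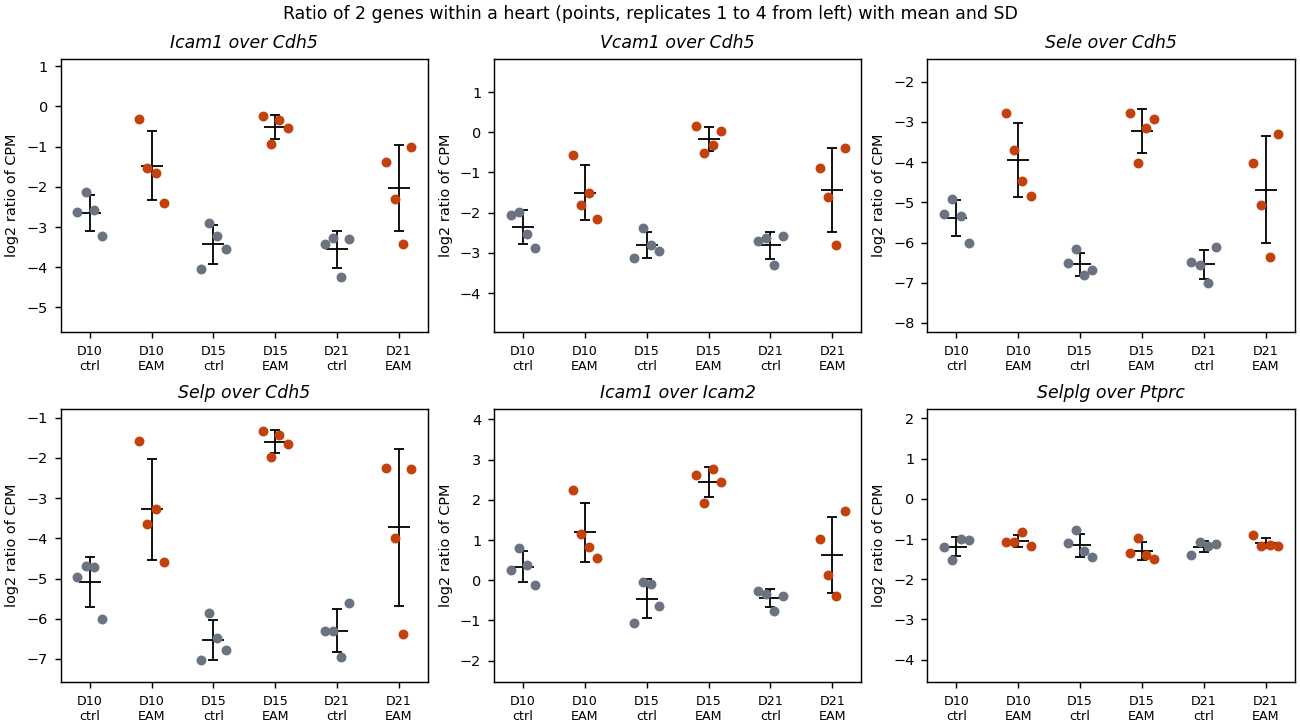
Log2 ratio of the CPM of a gene to that of another gene in the same heart (y axis, all panels spanning the same height) in the 6 groups (x axis), with grey points for control and orange points for EAM hearts and the mean and SD of 4 hearts. At D15 the EAM points of the 5 ratios to Cdh5 or Icam2 lie above all controls, while the Selplg to Ptprc points overlap at every time point.

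The partners of these molecules were read from lists, each by counts and medians. Of 11 integrin subunits that include the counter-receptors of Icam1 and Vcam1, 8 were called higher and 1 lower at D15. Their fitted log2 fold changes had a median of 3.64, against 0.02 over all genes. Itgb2, the beta2 chain that pairs with Itgal and Itgam to bind Icam1, rose by 5.30 (SE 0.19, adjusted p = 3.04e-08), and Itga4, the alpha chain that binds Vcam1, rose by 3.64. Itgax rose by 6.23, and Itgad, another beta2 partner, fell by 1.25 on the log2 scale (adjusted p = 0.00198). Itgad was low in both groups, at a mean of 0.60 CPM in D15 EAM hearts and 1.44 in controls. At D21, 5 of the 11 were called higher, and at D10 0 were called, with a median of 1.61. The D21 counts of this and the following lists rest on the same fit of D21 and its dependence on single libraries. Beside all list counts stand the shares of all genes, 18.1% higher and 12.9% lower at D15 and 4.3% and 1.3% at D21.

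Of 10 selectin partners and other glycoproteins, 8 were tested and 5 were called higher at D15, with a median of 3.55. Emb, an immunoglobulin-type membrane glycoprotein, rose by 5.01 (SE 0.18, adjusted p = 3.98e-08). Cd34, a sialomucin of endothelium, had a log2 fold change of -0.67 and was not called. At D21 2 of the 8 were called higher (Emb and Spn), and at D10 0. Of 13 enzymes that build or sulfate selectin ligands, 12 were tested at D15, with 3 called higher and 1 lower and a median of 0.42, counts near the shares of all genes (18.1% higher and 12.9% lower). Fut7, the fucosyltransferase that completes the sialyl Lewis x group on Selplg, rose by 3.75 (SE 0.22, adjusted p = 5.49e-07), and was called higher at D21 too (SE 0.51, adjusted p = 0.00689). Its mean was 2.28 CPM in D15 EAM hearts and 0.17 CPM in controls, where 3 reads equal 0.15 to 0.17 CPM. The size of its fold change therefore rests on very few control reads, and at D10 it was not tested. Fut4, a related fucosyltransferase, rose by 1.68 at D15, while the sialyltransferase St3gal3 fell by 1.25.

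Of 9 chemokines and chemokine-presenting molecules, 7 were called higher at D15 and 3 at D21, with medians of 3.36 and 2.28. Cxcl10 and Cxcl9, ligands of Cxcr3, rose by 7.04 and 6.94 at D15, and Ackr1, which carries chemokines across venular endothelium, by 2.52. Cx3cl1, a membrane-bound chemokine, had a log2 fold change of 0.19 (adjusted p = 0.322). Of 19 receptors and transcription factors that control endothelial activation, 11 were called higher and 0 lower at D15, with a median of 1.11, and 1 was called at D21. The type 2 TNF receptor Tnfrsf1b rose by 3.08 and the interleukin-4 receptor chain Il4ra by 2.84 at D15, and Nfkb1, Nfkb2, Relb and Nfkbia of the NF-kB system by 1.04 to 1.14, while Rela of the same system had a log2 fold change of 0.62 and was not called. Klf2, a flow-induced factor of resting endothelium, had a log2 fold change of -0.24. Ifngr2 had one of -0.73 and was not called. Many of these genes are also expressed by leukocytes.

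Of 16 other junctional genes 1 was called higher and 1 lower at D15, against 18.1% and 12.9% of all genes, with a median of -0.19. Cd47, a ligand for SIRP proteins, rose by 1.02 and Cldn5, the claudin of endothelial tight junctions, fell by 1.46. Cldn5 also belongs to the endothelial identity list, so these lists are not separate. Nectin2 had a log2 fold change of 0.66. In the endothelial identity list the median log2 fold change was -0.15 at D10, then -0.55 and -0.36 at D15 and D21, with 0 of 20 called at D10 and D21, and all 20 fitted values were below 0 at D15, from -1.56 for Ushbp1 to -0.29 for Flt1. Of 6 lymphatic endothelial genes tested at D15, 1 was called higher (Pdpn, 2.59) and 1 lower (Prox1, -1.41), also near the shares of all genes.

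**Figure D5:**
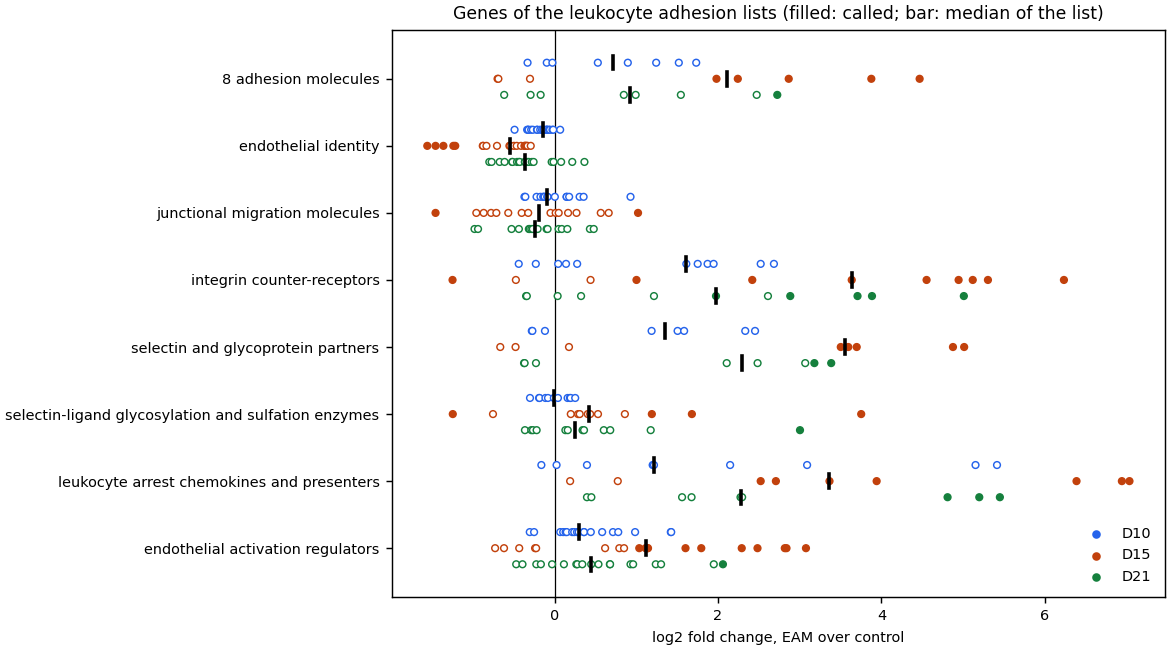
Log2 fold change of EAM over control (x axis) for each tested gene of 8 lists (y axis) at D10, D15 and D21, with filled points for called genes and a black bar for the median of the list. The integrin list, the selectin and glycoprotein list and the chemokine list have D15 medians of 3.36 to 3.64, and the endothelial identity list one of -0.55.

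The genes whose profile over the 24 hearts was nearest to each of the 8, by the root mean square difference of log2(CPM + 1) after centring were these. The nearest to Icam1 was Bcl3 (0.20), a protein of the IkB family, followed by Tnfaip6 (0.22), which was also nearest to Sele (0.27), ahead of Junb (0.29). Vcam1 was nearest to Dse (0.17) and Tnfrsf11a (0.18), and Selp to Plek (0.37) and Marcksl1 (0.39). The nearest to Selplg was Spi1 (0.15), the myeloid and B cell factor PU.1, followed by Cotl1 (0.16). Icam2 was nearest to N4bp3 (0.14) and Ddah2 (0.14), Pecam1 to Wdr59 (0.07) and Phf14 (0.07), and Cdh5 to the integrin Itga6 (0.11) and Ppp1r16b (0.13). Within the set, Icam1 lay 0.29 from Sele and 0.31 from Vcam1, Icam2 0.20 from Pecam1, and Selp 0.55 from Selplg. A small distance also follows from a flat profile, as for Pecam1, and the points share their libraries and scaling.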

How the data were processed

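RNA from a portion of each of 24 mouse hearts was sequenced as paired reads from directional mRNA libraries. The authors mapped reads to GRCm38 with HISAT2 (version 2.0.4 per the submitters' processing notes), removed duplicates with Picard and deposited raw counts per Ensembl gene from featureCounts. Removing duplicates without molecular identifiers can lower the counts of abundant transcripts. Of 41480 features, 92 spike-in rows held 0 reads and were left out.

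Groups and replicate numbers were taken from the labels. The authors state that they chose 4 mice per group and time point, so replicates were taken as separate mice. The tests set the difference between groups against the spread between these mice. No 2 libraries were duplicates: chi-square per degree of freedom between replicates was at least 5.45. A gene entered a fit when 4 or more of its samples had 10 or more reads, and TMM was applied. EAM and control hearts of each time point were compared with edgeR 4.0.16 (quasi-likelihood test, R 4.3.3), with Benjamini-Hochberg adjustment over all genes, an FDR under 0.01 and at least 2-fold. Differences between time points were contrasts in a fit of 24 samples. Ratios used log2 with 0.5 CPM added. Levels per kilobase used exon lengths of GENCODE M21 (GRCm38). Scripts were tested on simulated data. Tables used pandas 2.3.3 and numpy 2.4.6, and figures matplotlib 3.10.9, under Python 3.11.15.

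The genes and lists were chosen with earlier results of these data known. Named besides the 8 genes are Ptprc, the genes of each list with the 2 highest and the lowest log2 fold change at D15 at a mean of at least 1 CPM, and the 2 nearest profiles, of which 1 gene is not reported here. Other list genes named (Itgal, Itgam, Itga4, Spn, Ackr1, Nfkb1, Nfkb2, Relb, Nfkbia, Rela, Klf2 and the called endothelial genes) were added after their values were seen. Alternatives were other tests (DESeq2 1.42.0, limma-voom with limma 3.58.1, edgeR's likelihood ratio test and earlier quasi-likelihood form), limits, scalings, filters, controls, reference genes, a replicate block, and leaving out each library.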

Additional observations from a re-analysis of the deposited data

Results flagged for a closer look

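The EAM effect differed between D15 and D10, by a test of the difference itself, for Selp (2.69 on the log2 scale), Selplg (2.31) and Vcam1 (1.40). All 4 EAM hearts were above all controls at D15 for these genes, whereas at D10 this held for Selp alone. Each difference includes the change between D10 and D15 controls, fitted at -1.55, -0.77 and -0.395 for these genes and not called.

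Icam2 in replicate 1 of the D10 controls, at 38.6 CPM, stood apart from the other 3 hearts of its group, at 33.9 to 34.6 CPM, by a gap of 0.838 of the range of the group. Of 48 groups of 4 hearts tested in this way, 1 was set apart, and chance gives about 1 in 20.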

How the results depend on the processing

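At D15 the 5 called genes were 5 under every alternative but an FDR under 0.05 with no fold limit, which called 8, as it did 5991 of all 15693 genes higher and 5727 lower. At D10, 4 were called with all 12 control hearts as controls (Icam1, Sele, Selp and Selplg), in a fit that called 636 of 15545 genes higher and 52 lower, and 0 otherwise. At D21, where 1 was called, the count was 4 with an FDR under 0.05 and no fold limit (2867 of 15266 genes higher and 2152 lower), 3 with the likelihood ratio test (1356 and 412), DESeq2 (1364 and 369), all 12 controls (1588 and 355 of 15630) or all 24 samples in one fit (1567 and 475 of 16318), and 0 with limma-voom (80 and 135). Leaving out 1 library gave 0 to 5: 5 without EAM replicate 3 and 0 without any other. For the D15 minus D10 effect, with 3 called, the count was 6 at an FDR under 0.05 without a fold limit (3171 of 16318 genes higher and 4385 lower). It was 1 with limma-voom (826 and 1196 of 16318), total counts (996 and 859 of 16318) or no low-count filter (725 and 1063 of 27304). Leaving out 1 library gave 0 to 5. It was 5 without D10 EAM replicate 1, in a fit that called 1961 of 16275 genes higher and 1763 lower. It was 1 without D10 control 3, D15 control 2 or 3, D15 EAM 2, D21 control 1, 2 or 3, or D21 EAM 2, in fits that called 535 to 873 genes higher and 644 to 1164 lower. It was 0 without D10 control 1 or 2, D10 EAM 2, 3 or 4, D15 control 1 or 4, or D15 EAM 1 or 4, with 475 to 616 genes higher and 755 to 1074 lower. For D21 minus D15, with 0 called, an FDR under 0.05 gave 2 (2947 of 16318 genes higher and 1737 lower), and leaving out 1 library gave 0 to 2, with 2 without D21 EAM replicate 4 (1125 and 457 of 16283).

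Deviations of same-numbered EAM and control hearts from their group means correlated between -0.08 and 0.37 at D10, -0.10 and 0.04 at D15 and 0.10 and 0.30 at D21, with 1 of the D21 pairs just under 0.1, so the numbers were not taken to pair the hearts. With the replicate number as a block, the counts were 0 at D10 (1 of 15029 genes higher and 0 lower) and 5 at D15 (2780 and 2005 of 15693). They were 1 at D21 (645 and 155 of 15266), 5 for D15 minus D10 (1335 and 1141 of 16318) and 2 for D21 minus D15 (83 and 83 of 16318).

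Total-count scaling moved the D15 median of all genes from 0.02 to 0.17 on the log2 scale. It turned the sign of Icam2 at D10 (0.022) and, for D21 minus D15, of Pecam1 (-0.132) and Cdh5 (-0.064). Leaving out 1 library gave -0.07 to 0.051 for Icam2 at D10, and for D21 minus D15 -0.06 to 0.10 for Pecam1 and -0.071 to 0.215 for Cdh5. Other reversals were the platelet gene Ppbp at D15, fitted at 1.85, with all 12 controls (-0.96), and the natriuretic peptide gene Nppa at D15, fitted at -0.19 and between -0.55 and 0.086 without 1 library, with limma-voom (0.32), the block (0.15) or all 12 controls (0.10), and the ratio of Selplg at D15 over the leukocyte markers in place of Ptprc (0.69) and at D21 over Ptprc with 2 CPM added (-0.003). None of these was called in the main test and the cause was not tested. The lowest count of the 8 genes in any heart was 39 reads, and the part of depth in the D10 and D21 calls was not tested.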
